A study of Mus musculus with 6 samples.

Results

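The genes described here are 33 genes of the endoplasmic reticulum (ER), the compartment where secreted and membrane proteins are folded: chaperones, disulfide enzymes, degradation factors, stress sensors and parts of the translocation channel. They were chosen by function, with earlier results of these data known, as the rows of the expression tables that carry a listed gene symbol. All 33 were found among 24343 genes, each on 1 row. RNA sequencing was done on NK cells sorted from mouse spleen as NK1.1+ NKp46+ CD3- CD1d tetramer- cells, all from female C57BL/6 mice. One group was treated with IL-15 cytokine complexes (IL-15C, 3 libraries) and the other with IL-2 cytokine complexes (IL-2C, 3 libraries). A carrier bound to the cytokine prolongs its action in the body. Which carrier was used, the doses, the times and the ages of the mice are not given in the sources used here, and untreated cells were not analysed here. The series is about NK cells stimulated with IL-15C and cerebral malaria.

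Proteins enter the ER through the Sec61 channel, are folded by chaperones and disulfide isomerases, and are extracted for destruction in the cytosol when folding fails. Unfolded protein is sensed by IRE1 (gene Ern1), ATF6 and PERK. IRE1 splices the mRNA of Xbp1 so that it encodes an active transcription factor, and ATF6 is cut to release a transcription factor, and both raise chaperone and degradation genes. This programme is best known from antibody-secreting cells. In lymphocytes with cytotoxic granules, perforin and granzymes also pass through the ER.

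Values are FPKM, fragments scaled by transcript length and by the number of mapped fragments, so levels can be compared between genes. Across libraries, the deposited intervals implied 23543141 to 27229145 fragments in total and 655 to 17349 for each of the 33 genes. The sorted cells carried the sort marker Ncr1 (NKp46) at 755 to 797 FPKM in IL-15C and 783 to 832 FPKM in IL-2C. Of the T cell genes, Cd4 and Cd8b1 stayed at or below 0.0565 FPKM in every library. The CD3 chain genes were detected in these CD3- cells, Cd3g at 31.6 to 44.6 FPKM in IL-15C and 30.7 to 32.9 FPKM in IL-2C, Cd3d at 15.3 to 22.3 FPKM in IL-15C and 17.1 to 18.7 FPKM in IL-2C, and Cd3e at 3.57 to 4.58 FPKM in IL-15C and 3.40 to 5.70 FPKM in IL-2C. Summed over 13 B and plasma cell markers, 2 of which (Mzb1 and Derl3) are ER genes, the level was 9.91 to 46.97 FPKM in IL-15C and 17.3 to 67.1 FPKM in IL-2C. Whether each library is a mouse of its own is not in the labels, so the p-values speak for the spread among these libraries, part of which may be technical. In bulk RNA, fewer cells of a type and less RNA per cell cannot be told apart.

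The promoters show what many of the genes share. ATF6 and XBP1, together with the factor NF-Y, are known to act through the ER stress response element (ERSE), searched here on both strands as CCAAT and CCACG with any 9 bases between them. RefSeq promoter sequences (build GRCm38.p6, 250 bases before to 50 after the transcription start) matched 27 of the 33 genes by symbol. The other 6 were Atf6, Derl1, Hyou1, Manf, Sec61a1 and Ssr2. An ERSE stood in the promoters of 8 of the 27 genes (29.6%), against 0.137% of all 27025 genes in the table and 0.171% of the 7602 of them that were tested for expression. The 8 were the chaperone genes Hspa5, Hsp90b1 and Dnajc3, the lectin chaperone genes Calr and Canx, the disulfide isomerase gene Pdia6, Creld2 and the ubiquitin ligase gene Syvn1. The element is known from the pathway by which the members were listed, so this contrast describes the list and is not a test. The sequences around each element are shown because the element is the feature these promoters share; they are written 5′ to 3′ on the strand of the gene, with the element in capitals. In Calr, Creld2 and the second element of Hsp90b1 the element lies on the other strand, so its reverse complement is read. For Hspa5 only a short stretch is given, since a GENCODE exon overlaps a longer one.
Hspa5 (chr2:34772020-34772048, plus strand): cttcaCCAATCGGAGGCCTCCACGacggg
Hsp90b1, first element (chr10:86705618-86705676, minus strand): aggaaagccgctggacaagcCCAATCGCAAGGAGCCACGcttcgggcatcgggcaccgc
Hsp90b1, second element (chr10:86705513-86705571, minus strand): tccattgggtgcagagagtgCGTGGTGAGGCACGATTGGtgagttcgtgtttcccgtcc
Dnajc3 (chr14:118937807-118937865, plus strand): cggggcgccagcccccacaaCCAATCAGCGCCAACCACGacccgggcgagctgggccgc
Calr (chr8:84847055-84847113, minus strand): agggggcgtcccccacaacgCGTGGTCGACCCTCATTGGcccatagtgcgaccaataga
Canx (chr11:50325780-50325838, minus strand): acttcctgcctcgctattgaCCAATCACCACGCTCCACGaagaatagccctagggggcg
Pdia6 (chr12:17266471-17266529, plus strand): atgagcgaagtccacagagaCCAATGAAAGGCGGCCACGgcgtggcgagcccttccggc
Creld2 (chr15:88819500-88819558, plus strand): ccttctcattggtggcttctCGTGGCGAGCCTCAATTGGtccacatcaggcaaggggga
Syvn1 (chr19:6046512-6046570, plus strand): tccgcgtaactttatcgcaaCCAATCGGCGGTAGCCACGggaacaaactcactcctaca

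The shorter element ERSE-II, searched as ATTGG and CCACG with any 1 base between them, stood in 2 of the 27 promoters (7.41%), against 0.0444% of all genes and 0.105% of tested genes. It lay at -52 to -42 from the start of Herpud1, a gene that differed between the treatments, and at 7 to 17 after the start of Dnajb11. The Herpud1 stretch is shown for that reason, again with the element in capitals.
Herpud1 (chr8:94386357-94386407, plus strand): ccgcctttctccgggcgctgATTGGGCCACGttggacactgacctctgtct

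Another element, UPRE, searched as TGACGTGG, was in 0 of the 27 promoters and in 0.714% of all genes and 0.9997% of tested genes. The parts of the ERSE, CCAAT and CCACG, were each common alone, CCAAT in 77.8% of the members' promoters against 41.1% of all genes and 42.7% of tested genes, and CCACG in 81.5% against 35.5% of all genes and 53.2% of tested genes. Outside the members, 5 tested genes had an ERSE: Adcy3, Alg12, Hnrnpa3, Pan2 and Xlr3b. That of Alg12, a mannosyltransferase gene of N-glycan assembly, is the same stretch as that of Creld2, chr15:88819520-88819538, between the starts of the genes. The shares over all genes and over tested genes include the members. The contrasts for ERSE and ERSE-II describe the list and are not tests. A match describes letters in a window and is not evidence of binding.

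**Figure D1:**
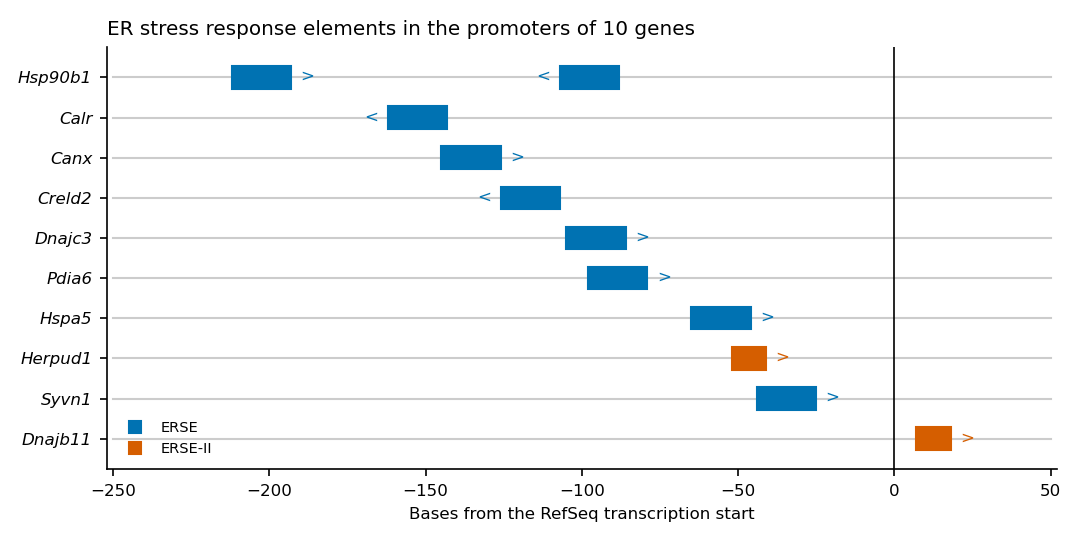
Position of each ERSE (blue) and ERSE-II (orange) in the promoters of 10 genes, in bases from the RefSeq transcription start, with arrows giving the strand relative to the gene. The ERSE copies lie between positions -212 and -26, and Hsp90b1 has 2 of them.

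All 33 genes were well expressed under both treatments. Their mean levels over the 6 libraries were 12.2 to 125 FPKM with a median of 35.0 FPKM, against a median of 12.6 FPKM over the 9831 genes tested. The 9831 are the genes with a mean of at least 1 FPKM, and all 33 members are among them. The highest were Hsp90b1 (GRP94, an ER member of the HSP90 family), Pdia3 (ERp57, a disulfide isomerase that works with the lectin chaperones), Calr (calreticulin), Sec61b and Hspa5 (BiP, the main HSP70 chaperone of the ER). The lowest was Atf6 and the next lowest were Creld2 and Hyou1. The 4 sensor and transcription factor genes had mean levels of 12.2 to 26.6 FPKM. The levels of Hsp90b1 and Pdia3 overlapped from library to library, as did those of Calr, Sec61b and Hspa5.

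**Figure D2:**
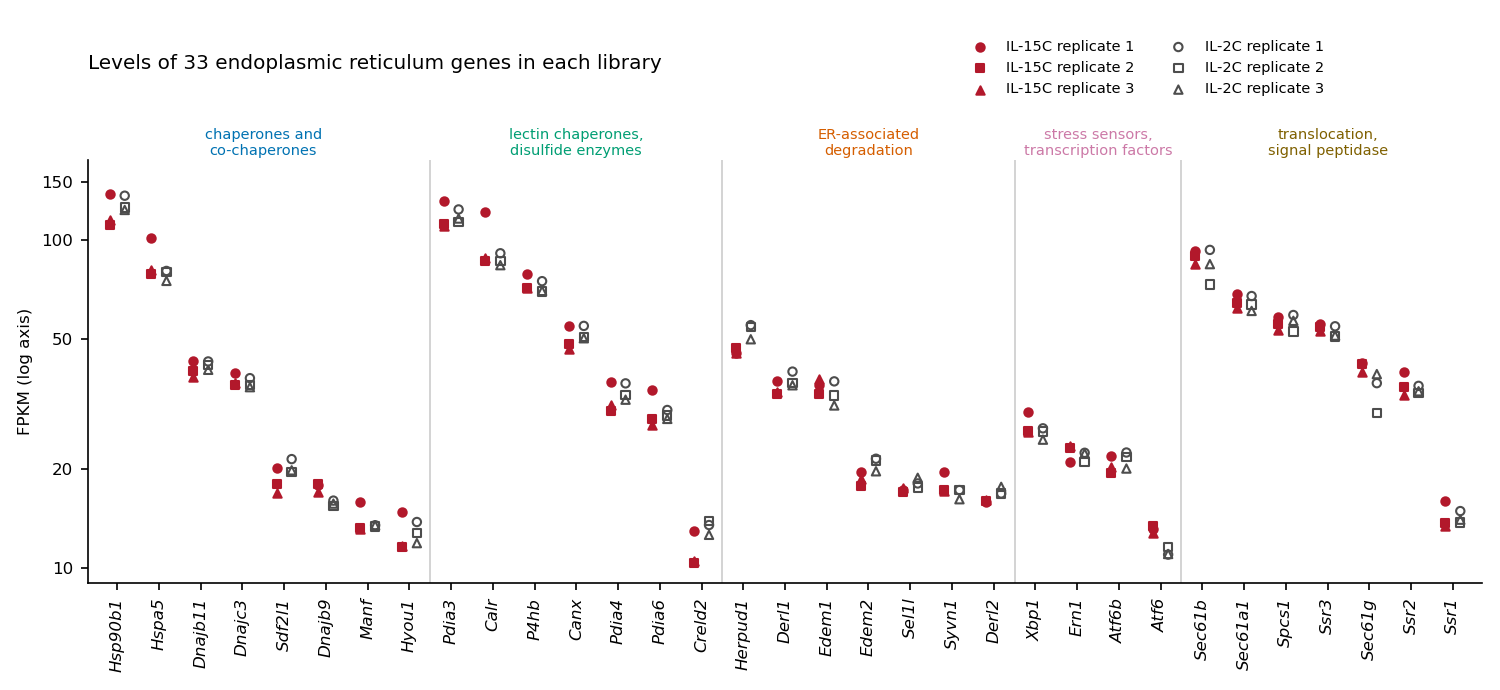
FPKM (log axis) of the 33 genes in each of the 3 IL-15C libraries (filled) and the 3 IL-2C libraries (open), grouped by function and sorted by mean level within each group. Levels run from about 10 FPKM for Creld2 to 139 FPKM for Hsp90b1, and in most genes the treatments overlap.

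By limma's moderated test across all 9831 genes with Benjamini-Hochberg adjustment at 0.05, Atf6 rose and Herpud1 fell in IL-15C, and 31 genes did not pass. That is 3.03% of the members in each direction, where 1.72% of all tested genes were higher in IL-15C and 4.72% lower. Over all tested genes 169 were higher and 464 lower, and with libraries scaled to a common median 325 were higher and 207 lower, with Atf6 and Dnajb9 among the higher and Herpud1 among the lower. With no filter on low values, 16313 genes were tested and 0 members passed in either direction. The 3 IL-15C values all lay above the 3 IL-2C values in 3 members (9.09%, against 8.15% of all tested genes) and all below in 4 (12.1%, against 25.1%). An unadjusted p under 0.05 was reached by 3 members higher (9.09%, against 6.48% of tested genes) and 4 lower (12.1%, against 20.4%). The median log2 change, IL-15C minus IL-2C on the log2(FPKM + 1) scale, was 0.02 over the members and -0.04 over all tested genes. Of the members, 15 (45.5%) were below 0, against 64.7% of all tested genes. These shares depend on the scaling. With a common median, the median change was 0.06 over the members and 0.0005 over all tested genes, and 22 members were above 0. Without that scaling, every member's 95% interval lay between -0.40 and 0.43 on the log2(FPKM + 1) scale. Summed FPKM of the 33 genes was 1512, 1333 and 1326 in the IL-15C libraries, against 1438, 1339 and 1338 in the IL-2C libraries, which is 0.370% to 0.414% of all FPKM in an IL-15C library and 0.375% to 0.380% in an IL-2C library. The ratio of the group means was 1.01, and 0.969 without IL-15C replicate 1.

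**Figure D3:**
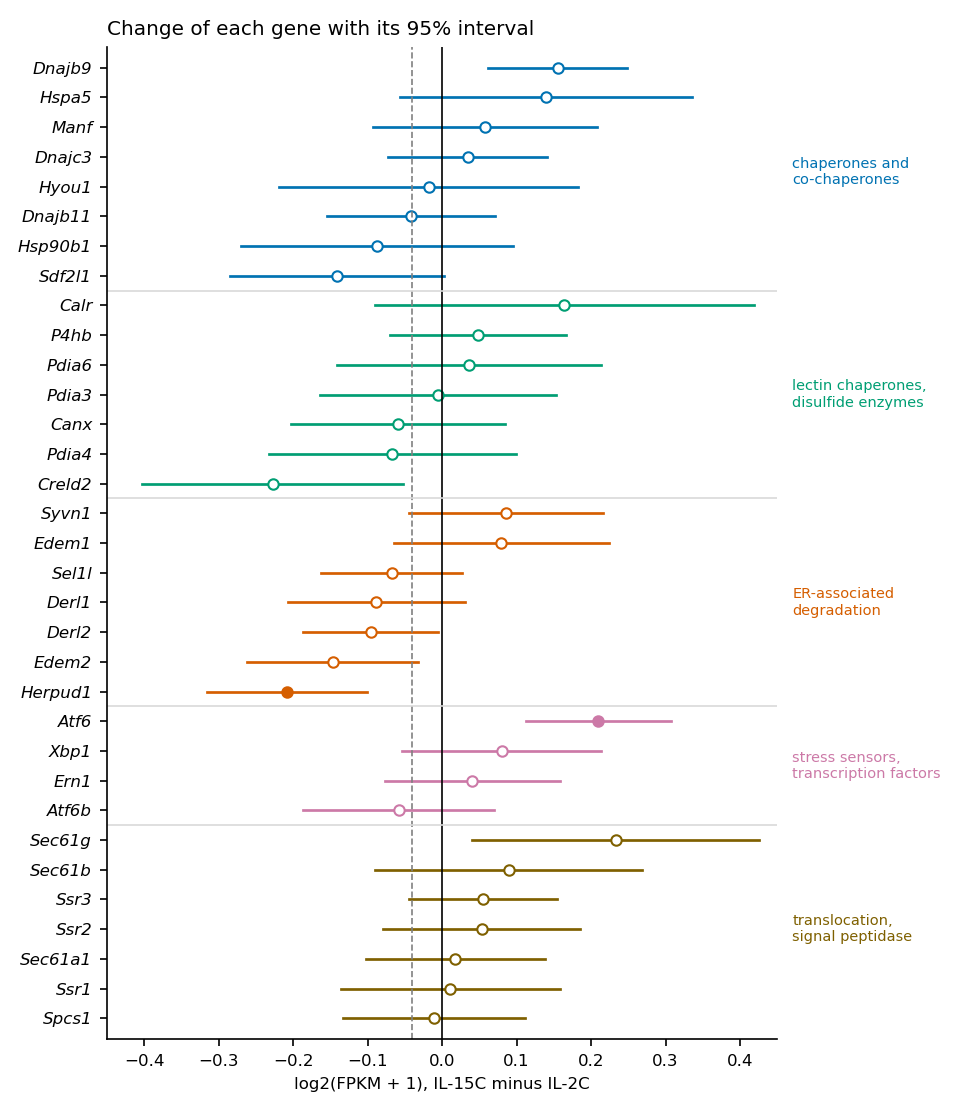
Difference in log2(FPKM + 1), IL-15C minus IL-2C, for each gene (circle) with its 95% interval (line), by function; filled circles passed the test and the dashed line is the median of all tested genes, -0.04. Only Atf6, at 0.21, and Herpud1, at -0.21, are filled, and all intervals stay between -0.40 and 0.43.

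Among the sensors and transcription factors, Atf6 rose and the other 3 genes did not pass. Atf6 encodes the membrane-bound factor that is carried to the Golgi and cut there when unfolded protein accumulates, and the gene lies on chromosome 1 at 170704457 to 170867771 (mm10). Its FPKM was 13.2, 13.4 and 12.8 in IL-15C against 11.0, 11.6 and 11.0 in IL-2C. All 3 IL-15C libraries were above all 3 IL-2C libraries, with means of 13.1 ± 0.318 FPKM in IL-15C and 11.2 ± 0.345 FPKM in IL-2C (SD, n = 3 each). The log2 change was 0.21 ± 0.04 (SE), with a limma adjusted p of 0.0301 and a ratio of means of 1.17. It passed with IL-15C replicate 1 left out (adjusted p = 0.0379) and missed the threshold with any other library left out. Leaving out IL-15C replicate 2 or 3 gave 0.0932 and 0.0569, and leaving out IL-2C replicate 1, 2 or 3 gave 0.09997, 0.0880 and 0.0621.

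Atf6b, the gene of the related factor ATF6 beta, had 20.6 ± 1.22 FPKM in IL-15C and 21.5 ± 1.23 FPKM in IL-2C, a log2 change of -0.06 ± 0.06. Xbp1 had 29.9, 26.2 and 26.0 FPKM in IL-15C against 26.7, 26.1 and 24.6 FPKM in IL-2C. IL-15C replicate 1 was highest and the groups overlapped, with a log2 change of 0.08 ± 0.06 (limma adjusted p = 0.412). Ern1, the gene of the kinase and RNase IRE1 alpha, had 21.1, 23.2 and 23.6 FPKM in IL-15C against 22.5, 21.1 and 22.4 FPKM in IL-2C. Here IL-15C replicate 1 was the lowest of its group, and the change was 0.04 ± 0.05 (limma adjusted p = 0.645). Values per gene do not separate spliced from unspliced Xbp1 mRNA, nor cut from uncut ATF6 protein.

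Of the 7 degradation genes, 0 rose, 1 fell and 6 did not pass. In 4 of the 7 every IL-15C value was below every IL-2C value, namely Herpud1, Edem2, Derl2 and Sel1l, while 25.1% of all tested genes had that order. The median log2 change of the 7 was -0.09, against -0.04 over all tested genes. Herpud1 encodes a membrane protein that organises the retrotranslocation complex, and lies on chromosome 8 at 94386500 to 94395358. It had 45.3, 46.7 and 45.3 FPKM in IL-15C and 55.04, 54.4 and 49.8 FPKM in IL-2C. The groups did not overlap. The means were 45.8 ± 0.836 FPKM in IL-15C and 53.1 ± 2.83 FPKM in IL-2C (SD, n = 3 each), a log2 change of -0.21 ± 0.05 with a limma adjusted p of 0.0377 and a ratio of 0.862. It passed when IL-15C replicate 1 (adjusted p = 0.0486) or IL-2C replicate 3 (0.0352) was left out. It missed the threshold when IL-15C replicate 2 (0.0861), IL-15C replicate 3 (0.102), IL-2C replicate 1 (0.117) or IL-2C replicate 2 (0.141) was.

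Edem2, whose product trims mannose from misfolded glycoproteins, had 19.6, 17.9 and 18.7 FPKM in IL-15C and 21.6, 21.3 and 19.7 FPKM in IL-2C. Its groups did not overlap, though the highest IL-15C and the lowest IL-2C value were close, and the log2 change was -0.15 ± 0.05 (limma adjusted p = 0.107). Derl2, a derlin of the retrotranslocation complex, had 15.9, 16.02 and 16.1 FPKM in IL-15C and 16.9, 16.9 and 17.7 FPKM in IL-2C. Its groups did not overlap, and the change was -0.10 ± 0.04 (limma adjusted p = 0.166). Sel1l, the partner of the ubiquitin ligase HRD1, had -0.07 ± 0.04 and Derl1 had -0.09 ± 0.05. Syvn1, the gene of HRD1 itself, had 0.09 ± 0.06, and Edem1, like Edem2 a mannosidase-type gene, had 0.08 ± 0.06. Exons of Derl2 and Syvn1 overlap exons of Mis12 and Mrpl49 on the other strand. How the counting treated strand is not stated in the sources used, so reads of such pairs cannot be told apart. The same holds for 8 more members with an exon overlap on the other strand, among them Dnajb9, Hsp90b1 and Manf, but not for Atf6 or Herpud1.

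**Figure D4:**
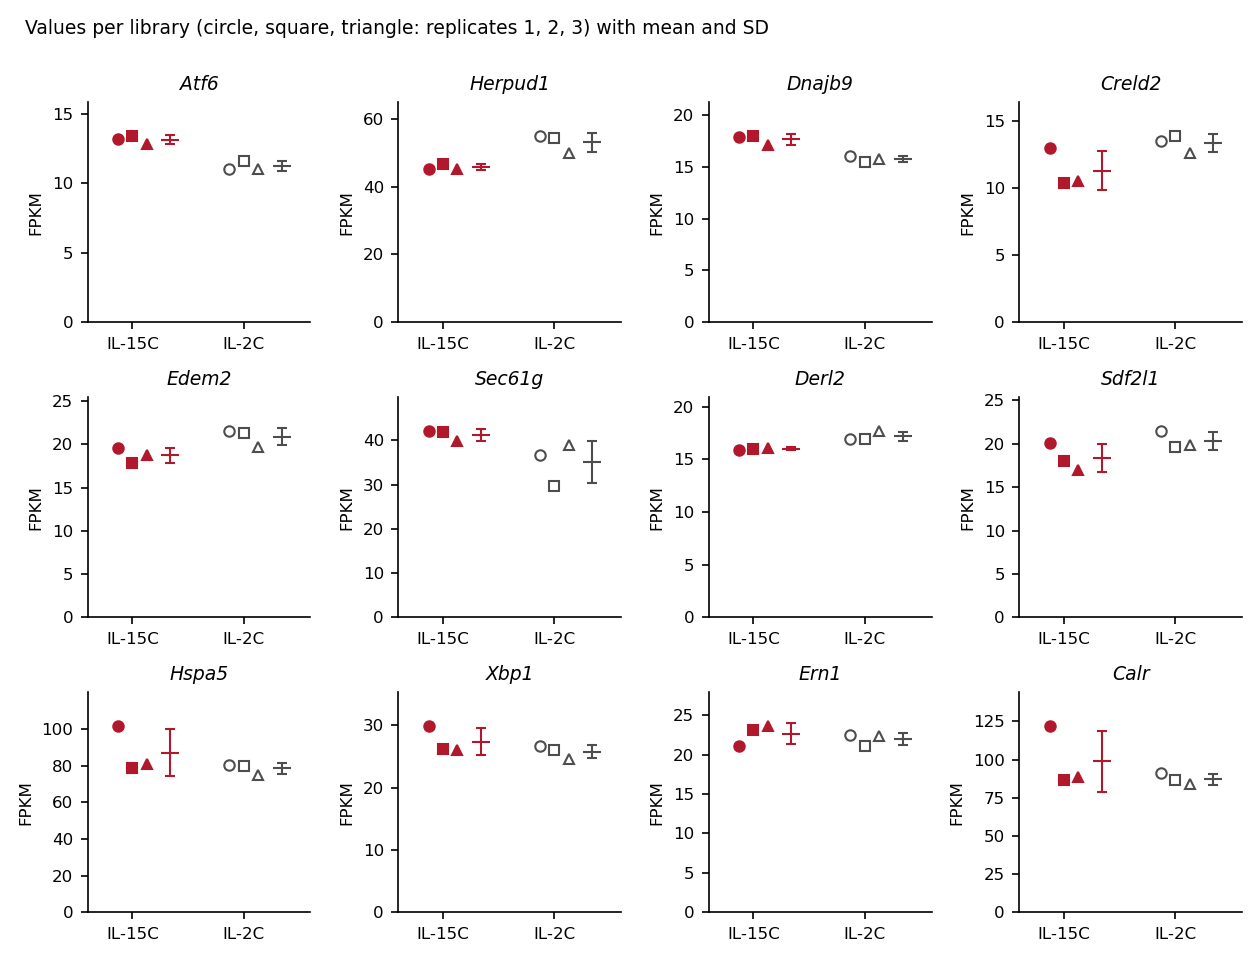
FPKM per library for the 8 genes with the smallest p (the first 8 panels), for Hspa5, Xbp1 and Ern1, and for Calr, in IL-15C (filled) and IL-2C (open), with the mean and SD beside the points. Atf6, Dnajb9 and Sec61g are separated with IL-15C above, and Herpud1, Edem2 and Derl2 with IL-15C below, while IL-15C replicate 1 stands above the other libraries in Hspa5 and Calr.

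Of the 8 genes of HSP70 and HSP90 chaperones and their partners, 0 passed the limma test. At an unadjusted p under 0.05, 1 was higher and 0 lower, against 6.48% and 20.4% of all tested genes. Dnajb9 (ERdj4), a co-chaperone of BiP that also restrains IRE1, came closest. It had 17.9, 18.02 and 17.1 FPKM in IL-15C and 16.1, 15.5 and 15.7 FPKM in IL-2C, with all IL-15C values above. The log2 change was 0.16 ± 0.04 (limma adjusted p = 0.0562). It passed when the filter was raised to a mean of 5 FPKM and under each of the 3 other scalings, as given in the closing section. Hspa5 had 102, 78.7 and 81.1 FPKM in IL-15C against 80.5, 80.0 and 75.1 FPKM in IL-2C. IL-15C replicate 1 stood above the other 5 libraries, which overlapped, and the change was 0.14 ± 0.09 (limma adjusted p = 0.333), or 0.02 without IL-15C replicate 1.

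Sdf2l1, whose product forms a complex with ERdj3 and BiP, had 20.1, 18.1 and 16.9 FPKM in IL-15C and 21.5, 19.7 and 19.9 FPKM in IL-2C. The change was -0.14 ± 0.06 (limma adjusted p = 0.194), and IL-15C replicate 1 lay within the range of IL-2C. The other 5 were Hsp90b1, Dnajb11 (ERdj3), Dnajc3 (p58IPK, a BiP partner and PERK inhibitor), Hyou1 (GRP170, a nucleotide exchange factor of BiP) and Manf, a secreted stress-induced protein. Their log2 changes were -0.09 to 0.06 and their groups overlapped. Hsp90b1, the highest of the 33, had 138.6, 111 and 115 FPKM in IL-15C against 137, 126 and 123.5 FPKM in IL-2C. Replicate 1 was highest in both groups. Manf had 15.9, 13.2 and 13.2 FPKM in IL-15C against 13.5, 13.4 and 13.5 FPKM in IL-2C, so that only IL-15C replicate 1 stood apart.

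Of the 7 genes of lectin chaperones and disulfide enzymes, 0 passed by limma. At an unadjusted p under 0.05, 0 were higher and 1 lower, against 6.48% and 20.4% of all tested genes. Creld2, a disulfide isomerase-like protein that is secreted under ER stress, had 12.98, 10.4 and 10.5 FPKM in IL-15C and 13.5, 13.9 and 12.6 FPKM in IL-2C. The 2 lower IL-15C libraries were below every IL-2C library and replicate 1 was within the IL-2C range, and the change was -0.23 ± 0.08 (limma adjusted p = 0.104). Calr, which like calnexin (Canx) holds glycoproteins until they are folded, had 122, 86.5 and 88.4 FPKM in IL-15C and 91.1, 86.5 and 83.8 FPKM in IL-2C. IL-15C replicate 1 was far above the other 5 libraries and the change was 0.16 ± 0.11 (limma adjusted p = 0.378), with the widest SE of the 33 genes, and 0.006 with that library left out. Calr, Canx and Pdia3 also serve the loading of MHC class I molecules with peptide. Canx had -0.06 ± 0.06, Pdia3 had -0.005 ± 0.07, and Pdia4, Pdia6 and P4hb, all disulfide isomerases, had -0.07 to 0.05.

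Of the 7 genes for entry into the ER, 0 passed by limma and 6 had changes above 0. At an unadjusted p under 0.05, 1 was higher and 0 lower. Over all tested genes 6.48% were higher and 20.4% lower at that level, and 35.3% were above 0. Sec61g, the gamma subunit of the channel, had 42.1, 41.8 and 39.7 FPKM in IL-15C and 36.6, 29.8 and 39.0 FPKM in IL-2C. The groups did not overlap and IL-2C replicate 2 was lowest. The change was 0.23 ± 0.09 (limma adjusted p = 0.122), the largest in size among the 33 genes, and it was 0.12 without IL-2C replicate 2. Sec61b, the beta subunit, was lowest in the same library, at 92.3, 89.2 and 84.6 FPKM in IL-15C and 93.3, 73.3 and 84.4 FPKM in IL-2C, with a change of 0.09 ± 0.08. Sec61a1, the pore subunit, had 0.02 ± 0.05, with no low value in that library. The translocon-associated genes Ssr1, Ssr2 and Ssr3 had 0.01, 0.05 and 0.06, and Spcs1, a subunit of the signal peptidase complex, had -0.01.

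One IL-15C library was high in most chaperone genes. In the 15 chaperone and disulfide genes, replicate 1 was also the highest of the IL-2C group, except for Creld2. The 8 chaperone genes summed to 391, 326 and 330 FPKM in IL-15C, against 363, 345 and 335 FPKM in IL-2C. The 7 lectin chaperone and disulfide genes summed to 472, 387 and 386 FPKM in IL-15C, against 425, 397 and 394 FPKM in IL-2C. IL-15C replicate 1 had the highest value of the 6 libraries for 19 of the 33 genes (57.6%), against 25.0% of all tested genes. For Canx, counted among the 19, IL-2C replicate 1 had the same value. IL-15C replicate 1 was above both other IL-15C libraries for 26 genes (78.8%, against 53.2%). These 26 include 14 of the 15 chaperone and disulfide genes and all 7 entry genes, but 3 of the 7 degradation genes and 2 of the 4 sensor genes. The ratio of replicate 1 to the mean of replicates 2 and 3 was 1.39 for Calr, 1.27 for Hyou1 and Hspa5 and 1.24 for Pdia6, and these 4 lay above the 95th percentile of all tested genes on the log2 scale (0.31). The median of that log2 ratio was 0.23 over the 8 chaperone genes, 0.26 over the 7 lectin chaperone and disulfide genes, 0.02 over the degradation genes and 0.04 over all tested genes. The coefficient of variation was larger in IL-15C than in IL-2C for all 15 chaperone and disulfide genes, with 49.1% of all tested genes in that order. These contrasts were picked after the values were seen and are given as descriptions.

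**Figure D5:**
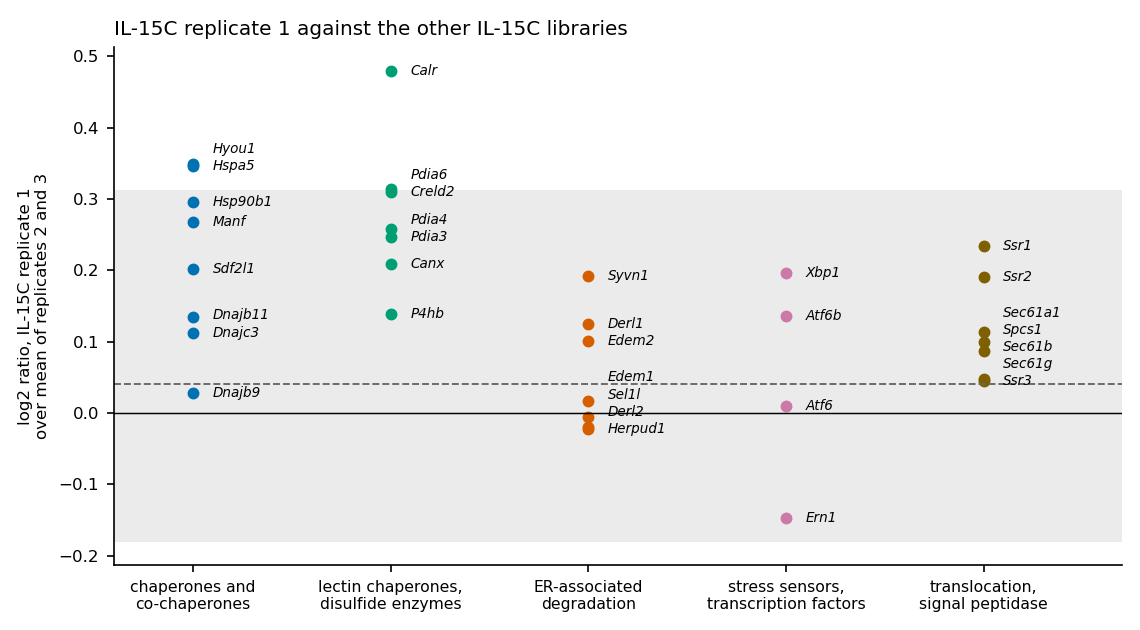
Log2 ratio of FPKM in IL-15C replicate 1 to the mean of IL-15C replicates 2 and 3 for each gene, by function; the dashed line is the median of all tested genes (0.04) and the grey band spans their 5th to 95th percentile (-0.18 to 0.31). Chaperone and disulfide genes lie above the median except Dnajb9, and Calr is farthest up at 0.48, while Herpud1, Atf6 and Ern1 do not share the shift.

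Some genes of other cell types were also high in that library. The 7 erythroid cell and platelet markers summed to 23.1 FPKM in IL-15C replicate 1, against 1.78 and 2.86 FPKM in the other IL-15C libraries and 3.70 to 4.84 FPKM in IL-2C, with Hbb-bs at no more than 0.00314 FPKM in any library. Most of the sum in IL-15C replicate 1 was globin, with Hba-a1 at 12.3, Hba-a2 at 4.69 and Hbb-bt at 4.38 FPKM. The platelet genes were not highest in that library. Pf4 had 0.495 FPKM there and 0.863 FPKM in IL-2C replicate 3. Ppbp had 0.925 FPKM there and 0.980 FPKM in IL-15C replicate 3. The 7 T cell markers summed to 71.8 FPKM in IL-15C replicate 1, 50.7 and 58.2 FPKM in the other IL-15C libraries and 52.6 to 57.5 FPKM in IL-2C. Most of the sum was from Cd3g and Cd3d, which were highest in IL-15C replicate 1 at 44.6 and 22.3 FPKM. The others, Cd3e, Cd4, Cd8b1, Cd5 and Cd6, were highest in IL-2C replicate 2. The 13 B and plasma cell markers summed to 46.97 FPKM in IL-15C replicate 1, 9.91 and 18.6 FPKM in replicates 2 and 3, against 38.2, 67.1 and 17.3 FPKM in IL-2C, so that IL-2C replicate 2 was highest. Cd74, the largest of them, followed that order, with 28.1 FPKM in IL-2C replicate 2. Jchain, an antibody-secreting cell gene, did not, at 6.61 FPKM in IL-15C replicate 1, 2.41 and 1.77 FPKM in replicates 2 and 3, against 1.42 to 4.61 FPKM in IL-2C. The plasma cell gene Sdc1 was at most 0.159 FPKM. The 8 myeloid markers summed to 355, 305 and 326 FPKM in IL-15C and 253 to 284 FPKM in IL-2C, most of it from Itgax, which NK cells also express and which was lowest of its group in IL-15C replicate 1 (235, against 249 and 260 FPKM). The granulocyte genes S100a8 and S100a9 were highest there. S100a8 had 42.6, 16.3 and 21.99 FPKM in IL-15C and 12.97 to 21.8 FPKM in IL-2C, and S100a9 had 45.95, 17.2 and 21.3 FPKM in IL-15C and 18.9 to 28.035 FPKM in IL-2C. Lyz2, a myeloid lysozyme gene, had 25.5, 15.1 and 15.5 FPKM in IL-15C and 12.2 to 19.99 FPKM in IL-2C, again highest in that library. Mpo was also highest there, at 0.771 FPKM. The remaining myeloid markers were not. Cd68 had 4.41, 5.87 and 5.40 FPKM in IL-15C and 4.11 to 4.41 FPKM in IL-2C. Csf1r was highest in IL-2C replicate 1, at 0.837 FPKM, and Siglech was at 0 FPKM in IL-15C replicate 1. The part of such cells in the chaperone values was not tested.

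Leaving that library out moved most members down. The library was singled out after it was seen to be high in these genes, so that fall was fixed in advance. The calls without it rest on that choice and are given as descriptions. With replicates 2 and 3 against the 3 IL-2C libraries, Atf6 was higher and Herpud1, Creld2 and Sdf2l1 were lower by the same limma test, where 1.78% and 5.82% of the 9821 genes tested were called. Creld2 then had a log2 change of -0.32 (adjusted p = 0.00998) and Sdf2l1 -0.21 (adjusted p = 0.0476), while neither passed with another library left out, with adjusted p of 0.118 to 0.264 for Creld2 and 0.226 to 0.456 for Sdf2l1. The median over the 33 genes was -0.04, and 21 of them were below 0. The median of all tested genes in that fit was -0.05.

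Other genes of the pathway were counted in the same fit. Over 5 lists of other ER and stress pathway genes, 96 of 106 genes were tested, of which 0 rose and 4 fell in IL-15C (4.17%, against 4.72% of all tested genes). Of 20 other degradation genes 0 rose, 2 fell and 18 did not pass, and 17 were below 0 with a median log2 change of -0.07. Over all tested genes, 64.7% were below 0 and the median was -0.04. The pair that fell were Herpud2, a relative of Herpud1, with 26.3 ± 0.693 FPKM in IL-15C and 30.2 ± 1.37 FPKM in IL-2C (limma adjusted p = 0.0415), and Ufd1l, a cofactor of the extracting ATPase VCP, with 25.3 ± 0.511 FPKM in IL-15C and 28.5 ± 0.251 FPKM in IL-2C (limma adjusted p = 0.0415). Vcp itself had 0.007 ± 0.06.

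Of 25 other genes for translocation, signal peptide removal and N-glycosylation, 0 rose, 1 fell and 24 did not pass. Over all tested genes, 1.72% were higher and 4.72% lower. Srp9, a subunit of the signal recognition particle, fell to 42.9 ± 0.154 FPKM in IL-15C, against 49.1 ± 2.17 FPKM in IL-2C (limma adjusted p = 0.0383). Of 10 tested genes of the PERK branch, 0 rose, 1 fell and 9 did not pass. Nfe2l2, the gene of the antioxidant factor NRF2 and a PERK substrate, fell to 21.4 ± 0.643 FPKM in IL-15C, against 25.5 ± 0.801 FPKM in IL-2C (limma adjusted p = 0.0200). Atf4 had -0.04 ± 0.06, and Ddit3 (CHOP) had 25.4, 25.7 and 26.5 FPKM in IL-15C and 29.6, 29.0 and 27.0 FPKM in IL-2C, with all IL-15C values below (limma adjusted p = 0.1002). The PERK gene Eif2ak3 had 0.005 ± 0.06. The stress-induced genes Trib3, Chac1, Asns and Atf3 were below the filter, at no more than 0.393 FPKM in any library.

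Of 23 other folding and oxidation genes 0 passed by limma. At an unadjusted p under 0.05, 0 were higher and 1 lower, against 6.48% and 20.4% of all tested genes. Among the 23, the smallest p was that of Tmx1, a membrane-bound disulfide isomerase gene, at -0.11 ± 0.04 (limma adjusted p = 0.150). Of 18 other genes tied to ATF6 and IRE1, 0 passed by limma, with 1 higher and 2 lower at that level. The smallest p was that of Bak1, a pro-apoptotic gene, which had 33.5 ± 2.59 FPKM in IL-15C and 28.4 ± 2.59 FPKM in IL-2C (limma adjusted p = 0.0817).

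The members with an ERSE went in both directions. The median log2 change was 0.04 over the 8 members with an ERSE, with 5 above 0, and -0.005 over the 19 with a listed promoter that lacks it, with 9 above 0. Over all tested genes 35.3% were above 0. Values of the ERSE genes ranged between -0.23 for Creld2 and 0.16 for Calr. These values depended on IL-15C replicate 1, as did those of some members that lack an ERSE. Without that library Hspa5, Syvn1 and Calr had 0.025, 0.025 and 0.006. Dnajc3, Pdia6, Canx, Hsp90b1 and Creld2 then had -0.002, -0.066, -0.127, -0.185 and -0.322.

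The authors' deposited table gives 1 value per group, scaled separately by Cuffdiff. In the authors' deposited table Atf6 had 17.8 FPKM in IL-15C (interval 15.1 to 20.5) and 14.8 FPKM in IL-2C (12.5 to 17.0). Herpud1 had 62.1 FPKM (52.7 to 71.5) in IL-15C and 69.8 FPKM (59.3 to 80.3) in IL-2C in the authors' deposited table. In the authors' deposited table the intervals of the 2 groups overlapped for all 33 genes. Over the 9831 tested genes, 0.590% had an IL-15C interval above and 0.224% below that of IL-2C in the authors' deposited table. There 22 of the 33 genes (66.7%) were higher in IL-15C, against 49.9% of tested genes. The table pools the same libraries and is not independent of them.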

How the data were processed

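RNA of sorted splenic NK cells went into Illumina libraries, per the labels. The authors deposited FPKM values with interval bounds, 1 table per library, and a Cuffdiff table of group FPKM, per the file headers. TopHat2 2.0.13 and Cufflinks 2.2.1 with build mm10 were used, per the submitters' processing notes; the annotation and strand setting are not given in the sources used here. Groups and replicate numbers came from sample titles.

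Rows of the same gene were summed (280 genes, 0 members) and 10 genes with a failed estimate, none of them members, were left out. The test was limma 3.58.1 (R 4.3.3) with an intensity trend, two-sided, on log2(FPKM + 1), over 9831 genes with a mean of at least 1 FPKM, with Benjamini-Hochberg adjustment and 0.05 as threshold. The scale understates changes of low genes. The procedure was checked on simulated data with changes larger than any seen among the members. That check did not cover changes of the members' size, or shifts shared by the genes of a library. Fragment numbers assume that each interval bound lies 2 Poisson SD from the FPKM, and they cover counting error only. Members, lists and the naming rule were chosen with earlier results of these data known. Named are all 33 members, the list genes past the threshold (or the smallest p of a list with none), and, chosen after seeing values, Calr per library, Vcp, Atf4, Ddit3, Eif2ak3, the low stress genes and the genes with an ERSE. Promoters came from RefSeq (GRCm38.p6) and exon overlaps from GENCODE. Planned protein features were not analysed here. Python 3.11.15, pandas 2.3.3, numpy 2.4.6 and matplotlib 3.10.9 were used. Alternatives were 0.1 and 5 as pseudocount, a filter at 5 FPKM or none, median, quantile and TPM scaling, a replicate block, the highest row in place of the sum, and leaving out each library.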

Additional observations from a re-analysis of the deposited data

How the results depend on the processing

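With no filter on low values, 0 members were higher and 0 lower, with adjusted p of 0.0695 for Atf6 and 0.0857 for Herpud1. With a minimum of 5 FPKM, median scaling, quantile normalization or TPM, 2 members were higher (Atf6 and Dnajb9) and 1 lower, with adjusted p for Dnajb9 of 0.0471, 0.0249, 0.0268 and 0.0400. With each library left out, 0 to 1 members were higher and 0 to 3 lower. Over all genes, 1.72% of tested genes were higher and 4.72% lower with all libraries. Leaving out IL-15C replicates gave 1.78% and 5.82% (replicate 1), 0.731% and 1.24% (replicate 2) and 1.11% and 1.55% (replicate 3). Leaving out IL-2C replicates gave 0.275% and 0.193% (replicate 1), 0.142% and 0.153% (replicate 2) and 0.864% and 2.45% (replicate 3), so that 14 genes were higher and 15 lower at the fewest. The counts stayed at 1 and 1 with either other pseudocount, the highest row and the replicate block. Over all tested genes, same-numbered libraries did not deviate together (correlations of -0.03, -0.16 and -0.02 for numbers 1, 2 and 3). The numbers were therefore not taken as pairs. Most chaperone members, though, were high in replicate 1 of both groups, and the replicate block lowered the SE of every member. That of Hsp90b1 went from 0.08 to 0.05 and that of Calr from 0.11 to 0.08. Calls over all genes were 171 higher and 346 lower with the replicate block, against 169 and 464. Over all genes the split was 325 higher and 207 lower with median scaling, 307 and 269 with quantile normalization, and 6 and 9 with no filter. The members' median log2 change was 0.02 to 0.06 under the settings with all 6 libraries and -0.04 to 0.06 with each left out, and the ratio of summed FPKM 0.969 to 1.05.

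Signs of genes that did not pass changed for Dnajb11 (0.00317), Hyou1 (0.0241), Pdia3 (0.0401) and Spcs1 (0.0333) with median scaling, for Hyou1 (0.0249) and Spcs1 (0.00738) with quantile normalization and for Pdia3 (0.0109) and Spcs1 (0.00442) with TPM. With each library left out, the lowest and highest log2 changes were -0.00235 and 0.0606 for Dnajc3, -0.126 and 0.0391 for Hyou1, -0.0261 and 0.101 for Manf, -0.0864 and 0.0406 for Pdia3, -0.0655 and 0.102 for Pdia6, -0.0198 and 0.0564 for Sec61a1, -0.0019 and 0.170 for Sec61b, -0.0564 and 0.0256 for Spcs1, -0.0619 and 0.0561 for Ssr1, and -0.00902 and 0.105 for Ssr2. The cause of these changes was not tested. Over the alternatives with all 6 libraries, adjusted p was 0.0153 to 0.0695 for Atf6. The number of libraries, 3 a group, limits the precision.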
